A study of Mus musculus with 4 samples.

Results

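Immediate early response genes were examined in day 3 embryoid bodies (EBs), aggregates formed by differentiating mouse embryonic stem cells (mESCs). The 10 genes are *Fos*, *Fosb*, *Jun*, *Junb*, *Egr1*, *Atf3*, *Ier2*, *Ier3*, *Dusp1* and *Btg2*, taken by gene symbol as known early targets of growth factor and stress signalling. All 10 were found among the 24347 gene rows. The comparison is between WT cells and cells that lack the promoter of *Gm11549*, deleted by CRISPR/Cas9 (promoter KO). Each genotype has 2 samples, named here WT 1, WT 2, promoter KO 1 and promoter KO 2. *Gm11549* encodes the micropeptide NEMEP. The cells are of the 129/Ola strain, and the labels call all 4 samples mesendoderm cells derived from ES cells. Both genotypes were grown in ESC medium with 15% serum, from which LIF had been withdrawn, on bacterial plates without gelatin, and no other treatment was given. The promoter KO lines were grown from single sorted cells, and the study names 2 such mutants with the numbers 1 and 2. The sources used here do not say whether the samples called promoter KO 1 and promoter KO 2 are these mutants or cultures of 1 line.

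Immediate early genes are transcribed within minutes of a signal such as serum, a growth factor or stress, without new protein synthesis, because the factors that switch them on are already in the cell. Signals pass through the MAP kinases to SRF with its ternary complex partners and to CREB, which bind the CArG box and the cAMP response element (CRE). The transcripts are short-lived, and several of the proteins, such as the phosphatase DUSP1, act back on the pathway, so the response is usually brief. FOS and JUN proteins pair into the transcription factor AP-1, which serves in growth, differentiation and stress responses in most cell types.

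Expression is given in FPKM (fragments divided by transcript length in kilobases and by library size), which adjusts levels for these 2 quantities. It does not adjust for differences in the make-up of the libraries, and calls after median centring are given at the end. The sum over all gene rows was 677777 FPKM for WT 1, 696928 for WT 2, 673951 for promoter KO 1 and 679870 for promoter KO 2. The number of fragments behind these values, estimated from the smallest FPKM steps of genes with 1 annotated transcript and an assumed fragment length of 200 bases, was about 24700000 in WT 1 and 21900000 in WT 2, against 21600000 for promoter KO 1 and 20100000 for promoter KO 2. Depth was therefore similar in the 4 samples.

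*Gm11549*, the targeted gene, had 0.750 FPKM in WT 1 and 0.522 FPKM in WT 2, against 0 FPKM for promoter KO 1 and 0.0659 FPKM for promoter KO 2. Its level was lower in each promoter KO sample than in either WT sample, in the direction of their labels. The gene stayed under 1 FPKM in every sample and was not tested. At the estimated depth its values stand for about 48.7, 30.1, 0 and 3.48 fragments in the same order.

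WT 2 stood apart from the other 3 samples in these genes. The levels of the 10 genes summed to 239.5 FPKM in WT 1 and 574.7 FPKM in WT 2, against 176.1 FPKM for promoter KO 1 and 195.8 FPKM for promoter KO 2. WT 2 had the highest value of the 4 samples for 8 of the 10 genes, and the exceptions were *Ier3*, highest in WT 1, and *Btg2*, highest in promoter KO 1. Results are therefore given with and without WT 2. Nothing in the labels sets WT 2 apart from WT 1 other than its number.

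**Figure D1:**
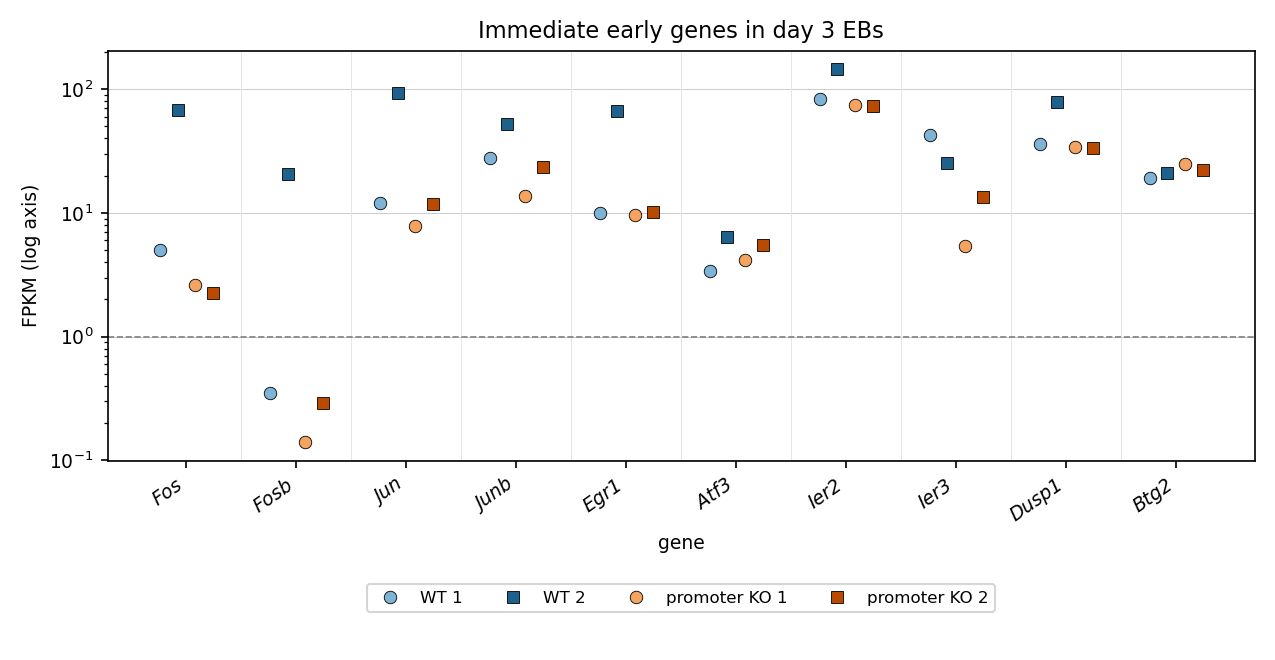
FPKM of the 10 immediate early genes (log axis) in each sample, with WT in blue, promoter KO in orange, circles for replicate 1, squares for replicate 2 and a dashed line at 1 FPKM. WT 2 is far above the other 3 samples for *Fos*, *Fosb*, *Jun* and *Egr1*, while *Ier3* is lowest in promoter KO 1 at 5.45 FPKM and highest in WT 1 at 42.8 FPKM.

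Promoter sequences are shown for 5 of the genes: *Fos*, *Fosb* and *Dusp1*, which were more than 2-fold higher in WT 2 than in WT 1, and *Ier3* and *Btg2*, which were not. RefSeq (GRCm38.p6) promoter windows, from 250 bases before the annotated start to 50 bases from it on, were matched by symbol for 8 of the 10 genes, and *Egr1* and *Ier2* had no entry. The windows run 5′ to 3′ on the strand of the gene. Capitals mark matches, on either strand, to the CRE (TGACGTCA), its core (TGACG), the AP-1 site (TGANTCA), the EGR site (GCGNGGGCG), the TATA box (TATAAA) or the CArG box.
*Fos*, chr12:85473640-85473939, plus strand: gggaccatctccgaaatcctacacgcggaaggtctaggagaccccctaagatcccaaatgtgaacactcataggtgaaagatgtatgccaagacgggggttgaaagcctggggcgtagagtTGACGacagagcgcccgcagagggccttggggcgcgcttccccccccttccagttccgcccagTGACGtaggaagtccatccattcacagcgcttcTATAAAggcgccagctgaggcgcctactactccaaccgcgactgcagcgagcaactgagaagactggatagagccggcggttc
*Fosb*, chr7:19309996-19310295, minus strand: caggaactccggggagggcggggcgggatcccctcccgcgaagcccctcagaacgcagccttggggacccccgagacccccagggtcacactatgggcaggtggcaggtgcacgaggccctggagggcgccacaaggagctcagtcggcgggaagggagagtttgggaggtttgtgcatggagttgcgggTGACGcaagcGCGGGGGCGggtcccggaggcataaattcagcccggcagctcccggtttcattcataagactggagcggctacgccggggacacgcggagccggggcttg
*Dusp1*, chr17:26508423-26508722, minus strand: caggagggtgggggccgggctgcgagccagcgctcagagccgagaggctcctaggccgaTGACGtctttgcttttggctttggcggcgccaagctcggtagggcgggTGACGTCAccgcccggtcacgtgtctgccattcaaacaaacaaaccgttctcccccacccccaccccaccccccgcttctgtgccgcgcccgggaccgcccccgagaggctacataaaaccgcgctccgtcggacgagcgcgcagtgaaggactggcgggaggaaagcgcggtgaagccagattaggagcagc
*Ier3*, chr17:35821463-35821762, plus strand: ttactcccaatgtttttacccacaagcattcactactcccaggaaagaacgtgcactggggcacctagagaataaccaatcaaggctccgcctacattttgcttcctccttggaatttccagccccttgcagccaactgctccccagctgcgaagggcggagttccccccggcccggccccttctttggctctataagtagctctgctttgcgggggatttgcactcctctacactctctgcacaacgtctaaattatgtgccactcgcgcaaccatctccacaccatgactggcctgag
*Btg2*, chr1:134079106-134079405, minus strand: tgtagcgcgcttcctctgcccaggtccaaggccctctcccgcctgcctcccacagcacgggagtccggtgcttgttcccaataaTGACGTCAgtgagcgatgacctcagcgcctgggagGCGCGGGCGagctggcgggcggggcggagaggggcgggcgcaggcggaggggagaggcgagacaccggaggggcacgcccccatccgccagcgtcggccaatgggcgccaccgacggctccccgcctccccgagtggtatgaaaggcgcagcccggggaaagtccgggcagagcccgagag

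The CRE core was the most frequent of these motifs, found in 6 of the 8 windows (*Fos*, *Fosb*, *Junb*, *Dusp1*, *Atf3* and *Btg2*) and in 20.8% of all 32851 promoter windows. The whole CRE, which contains the core, was found in *Dusp1* and *Btg2*, against 1.79% of all windows. In *Fos* the core occurred at -129 and again at -66, counted from the annotated start as 0, with a TATA box at -33. An EGR site was found in *Fosb* and *Btg2* (5.55% of all windows), and a TATA box in *Fos* and *Junb* (13.6%). The match in *Junb* lay at 0 to 5, on the annotated start itself and not before it. None of the 8 windows held a CArG box (1.63% of all windows) or an AP-1 site (7.81%), which says only that these letters are not within the windows. The windows of *Ier3* and *Jun* held no match to any motif searched. Matches did not separate genes that were high in WT 2 from those that were not, since *Dusp1* and *Btg2* share the whole CRE. No test was made.

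*Fos*, the founding AP-1 subunit and the classic serum-response gene, had 5.03 FPKM in WT 1 and 67.3 FPKM in WT 2, against 2.61 FPKM for promoter KO 1 and 2.27 FPKM for promoter KO 2. WT 2 was far above all other samples, the promoter KO samples lay close together, and both were below WT 1, so the genotypes did not overlap. WT 2 exceeded WT 1 by 13.4-fold, whereas WT 1 exceeded the promoter KO mean by 2.06-fold. The log2 fold change from WT to promoter KO, on the scale of log2(FPKM + 1), was -2.56 (SE 1.02; limma, Benjamini-Hochberg adjusted p = 0.157). It was -0.81 without WT 2 (adjusted p = 0.216) and -4.31 without WT 1 (adjusted p = 0.0178).

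*Fosb*, its close relative, had 0.348 FPKM in WT 1 and 20.5 FPKM in WT 2, against 0.141 FPKM for promoter KO 1 and 0.289 FPKM for promoter KO 2. The gene was barely detected in 3 samples and well expressed in WT 2 alone, at 58.8-fold the level of WT 1. At the estimated depth, and over the longest annotated transcript, the values stand for about 30.8, 1606, 10.9 and 20.8 fragments. *Fosb* reached 1 FPKM in a single sample and so was the only 1 of the 10 genes left out of the test. When the filter on low values was removed, its log2 fold change was -2.15 (adjusted p = 0.413).

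*Jun*, the main partner of FOS in AP-1, had 12.0 FPKM in WT 1 and 93.6 FPKM in WT 2, against 7.86 FPKM for promoter KO 1 and 11.8 FPKM for promoter KO 2. WT 2 was again far above the rest, and promoter KO 2 was almost level with WT 1, so that the genotypes only just failed to overlap. From WT to promoter KO the log2 fold change was -1.72 (SE 0.85; limma adjusted p = 0.226). It became -0.28 without WT 2 (adjusted p = 0.600) and -3.15 without WT 1 (adjusted p = 0.0285).

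*Junb*, a JUN family member that can also restrain AP-1 activity, had 27.9 FPKM in WT 1 and 52.2 FPKM in WT 2, against 13.7 FPKM for promoter KO 1 and 23.3 FPKM for promoter KO 2. Both promoter KO samples were below both WT samples, and the samples numbered 2 were the higher in each genotype, by 1.87-fold in WT and 1.71-fold in promoter KO. The genotypes differed by -1.05 on the log2 scale (SE 0.34; limma adjusted p = 0.110), and -0.61 without WT 2 (adjusted p = 0.401). With the replicate number as a block the limma adjusted p of *Junb* was 0.0100, although the labels name no pairing. The promoter KO samples differed by 0.73 on the log2 scale, a larger difference than in 97.8% of all tested genes.

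*Egr1*, a zinc finger transcription factor induced through SRF, had 9.94 FPKM in WT 1 and 66.1 FPKM in WT 2, against 9.69 FPKM for promoter KO 1 and 10.2 FPKM for promoter KO 2. WT 1 lay between the promoter KO samples, so the genotypes overlapped, and WT 2 alone was high, at 6.65-fold the level of WT 1. The log2 fold change of -1.31 (SE 0.76; limma adjusted p = 0.292) became 0.00 without WT 2 (adjusted p = 0.998) and -2.61 without WT 1 (adjusted p = 0.0226). The difference between genotypes thus rested on WT 2 alone.

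*Atf3*, a stress-induced factor of the ATF/CREB family, had 3.38 FPKM in WT 1 and 6.34 FPKM in WT 2, against 4.15 FPKM for promoter KO 1 and 5.49 FPKM for promoter KO 2. The genotypes overlapped completely, with WT 1 the lowest and WT 2 the highest of the 4 samples. Its log2 fold change was 0.03 (SE 0.27; limma adjusted p = 0.956). The sign turned when 1 sample was left out, from 0.40 without WT 2 to -0.35 without WT 1.

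The remaining 4 genes encode proteins that are not DNA-binding factors of these families. *Ier2*, a nuclear protein of the early response, was the most abundant of the 10 genes, with 83.3 FPKM in WT 1 and 144 FPKM in WT 2, against 73.9 FPKM for promoter KO 1 and 73.3 FPKM for promoter KO 2. WT 1 was close to the promoter KO samples and WT 2 was above all 3, without overlap between genotypes. Its log2 fold change was -0.57 (SE 0.24; limma adjusted p = 0.171), -0.18 without WT 2 (adjusted p = 0.472) and -0.96 without WT 1 (adjusted p = 0.0386).

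*Dusp1*, the phosphatase that inactivates MAP kinases, had 35.8 FPKM in WT 1 and 78.0 FPKM in WT 2, against 33.9 FPKM for promoter KO 1 and 33.3 FPKM for promoter KO 2. WT 1 and both promoter KO samples were nearly level and WT 2 was 2.18-fold above WT 1. Between genotypes the log2 fold change was -0.64 (SE 0.33; limma adjusted p = 0.240), -0.09 without WT 2 (adjusted p = 0.738) and -1.19 without WT 1 (adjusted p = 0.0349).

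*Ier3*, a regulator of apoptosis and of ERK signalling, behaved differently, with 42.8 FPKM in WT 1 and 25.5 FPKM in WT 2, against 5.45 FPKM for promoter KO 1 and 13.5 FPKM for promoter KO 2. Both promoter KO samples were below both WT samples, WT 1 and not WT 2 was the highest, and the promoter KO samples differed by 2.47-fold. For this gene the log2 fold change was -1.82 (SE 0.41; limma adjusted p = 0.0630), the smallest adjusted p among the tested genes of the list, and still above 0.05. It was -2.18 without WT 2 (adjusted p = 0.210), -1.46 without WT 1 (adjusted p = 0.157), -1.24 without promoter KO 1 (adjusted p = 0.202) and -2.40 without promoter KO 2 (adjusted p = 0.0417). Whichever sample was left out, *Ier3* was lower in promoter KO.

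*Btg2*, an antiproliferative gene that p53 can induce, had 19.0 FPKM in WT 1 and 21.0 FPKM in WT 2, against 24.7 FPKM for promoter KO 1 and 22.3 FPKM for promoter KO 2. Its levels were nearly even, with both promoter KO samples slightly above both WT samples. Its log2 fold change was 0.23 (SE 0.11; limma adjusted p = 0.217), and between 0.16 and 0.30 under the 11 other limma settings.

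Ranked by mean FPKM in promoter KO, *Ier2* (73.6) was highest, followed by *Dusp1* (33.6), *Btg2* (23.5), *Junb* (18.5), *Egr1* (9.96), *Jun* (9.82), *Ier3* (9.45), *Atf3* (4.82), *Fos* (2.44) and *Fosb* (0.215). The samples of *Btg2* and *Junb* overlapped, as did those of *Egr1*, *Jun* and *Ier3* and, barely, those of *Ier3* and *Atf3*, whereas the other neighbours were separated in both samples. In WT the order of the means rests on WT 2 and is not given.

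Of the 9 tested genes, 0 were called lower and 0 higher at an adjusted p under 0.05, where limma called 1.89% of the 11941 tested genes lower and 1.68% higher. The replicate block called 1 of the 9 lower (*Junb*), and 667 of the 11941 lower and 535 higher. At an unadjusted p under 0.05, 3 were lower (*Fos*, *Junb* and *Ier3*), against 15.6% of all genes, and 0 were higher, against 15%. The same 3 passed a fold change below 0.5 with an unadjusted p under 0.05, against 1.63% of all genes, and 0 passed the upper fold change of 2, against 1.4%. In 6 of the 9 both promoter KO samples were below both WT samples, against 32.4% of all genes, and *Btg2* was the 1 gene above, against 32.9%. The median log2 fold change of the 9 genes was -1.05, and 0.00 over all tested genes. Permuting 4 samples exactly allows no two-sided p under 0.333 for 1 gene, and the calls therefore depend on the spread that limma shares between genes.

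Leaving out WT 2 brought the median of the 9 genes to -0.18, and leaving out WT 1 brought it to -1.46. Without WT 2, 0 of the 9 had an adjusted p under 0.05 (0% of all genes), 2 were lower at an unadjusted p under 0.05 (*Fos* and *Ier3*; 8.17% of all genes), and 1, *Ier3*, passed the fold change below 0.5 with an unadjusted p under 0.05 (1.11% of all genes). Without WT 1, 5 of the 9 were lower at an adjusted p under 0.05 (*Fos*, *Jun*, *Egr1*, *Ier2* and *Dusp1*), against 0.955% of all genes, and 6 passed the fold change below 0.5 with an unadjusted p under 0.05, against 2.71%. In that fit WT 2 was the lone WT sample and was assumed to vary as little as the promoter KO samples, which the comparison of WT 2 with WT 1 does not bear out for these genes.

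**Figure D2:**
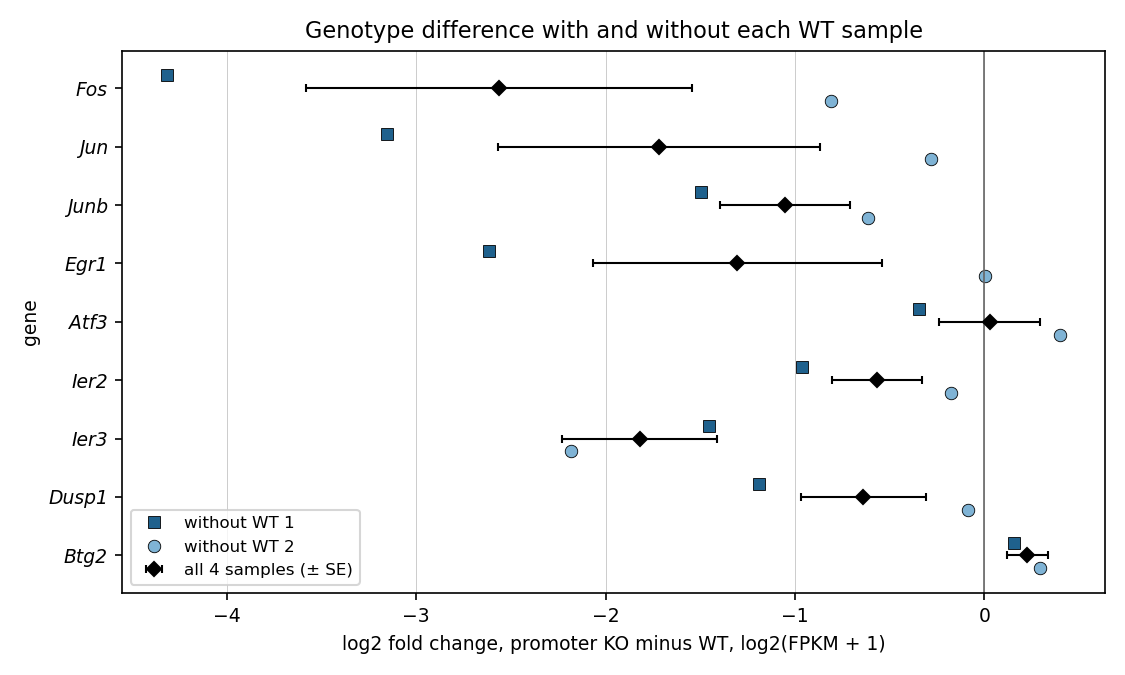
Log2 fold change from WT to promoter KO (x axis, log2(FPKM + 1)) of the 9 tested genes, with all 4 samples (diamonds, bars of 1 SE), without WT 1 (squares) and without WT 2 (circles). Without WT 2 the value of *Egr1* is 0.00 and that of *Jun* is -0.28, while *Ier3* moves the other way, to -2.18.

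The spread between replicates was unequal in the genotypes for these genes. The median size of the difference between the WT samples was 0.88 on the log2 scale for the 9 tested genes and 0.13 for all tested genes. Between the promoter KO samples it was 0.15 for the 9 genes and 0.14 for all. The promoter KO median covers unequal genes: the difference was larger than in 99.5% of all tested genes for *Ier3*, 97.8% for *Junb*, 94.5% for *Jun* and 83.8% for *Atf3*, and larger than in 4.46% for *Ier2*. With quantile normalization it was 0.20 for the 9 genes and 0.13 for all. WT 2 exceeded WT 1 by more than 1 on the log2 scale in 4 of the 9 (*Fos*, *Jun*, *Egr1* and *Dusp1*), against 0.938% of all genes, a threshold set after the values were seen. The promoter KO samples differed by more than 1 in 1 of the 9, *Ier3*, against 0.762% of all genes.

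WT 2 was the highest of the 4 samples in 7 of the 9 tested genes, against 31% of all genes, and exceeded every other sample by more than 1 on the log2 scale in 4 of the 9, against 0.536%. Ranked by that excess, *Fos*, *Jun* and *Egr1* were 1, 2 and 3 of the 11941 tested genes, with excesses of 3.50, 2.87 and 2.58. *Dusp1* ranked 51, *Junb* 87 and *Ier2* 110, whereas *Atf3* ranked 1362, *Btg2* 7509 and *Ier3* 11208. The early response genes were therefore not uniformly raised in WT 2.

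**Figure D3:**
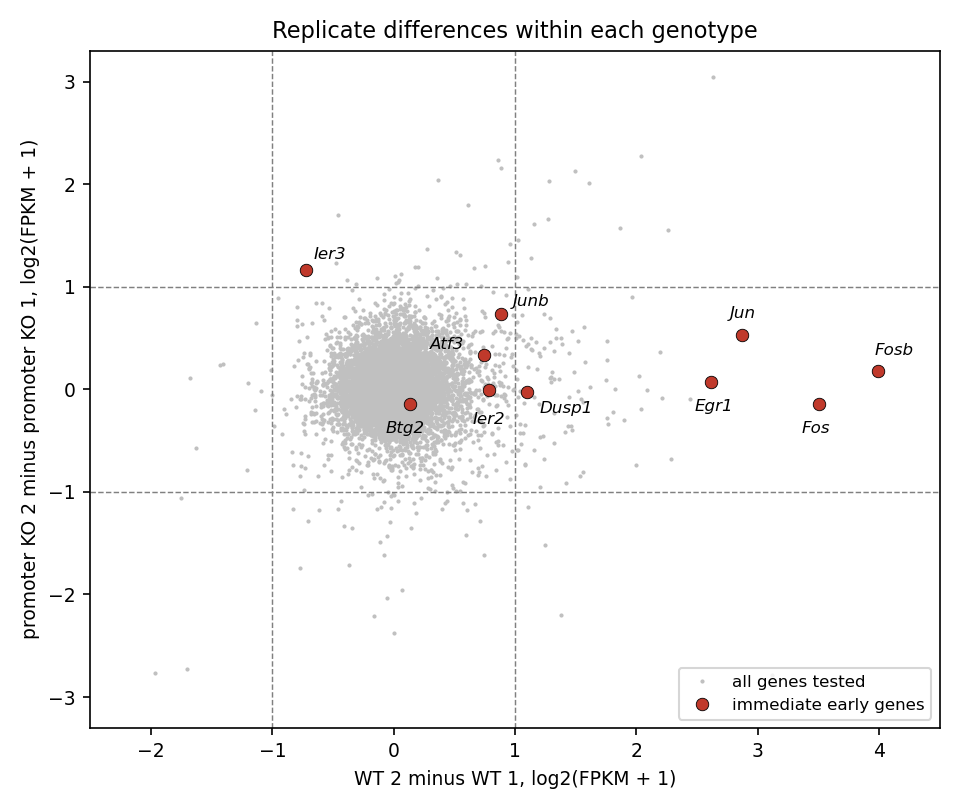
Difference between replicates on the scale of log2(FPKM + 1), WT 2 minus WT 1 (x axis) against promoter KO 2 minus promoter KO 1 (y axis), for all tested genes (grey) and the 10 immediate early genes (red), with dashed lines at 1 and -1 and 1 gene outside the axes. *Fos*, *Fosb* and *Egr1* lie far to the right and near 0 on the y axis, *Jun* lies far to the right at 0.53, and *Ier3* lies at -0.73 and 1.17.

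Other genes shared the excess in WT 2. The genes that follow *Egr1* in that order, named after their values were seen, were *Hand1*, *Kdr*, *Fgf3*, *Klhl6*, *Rps27*, *Cdx2*, *Wnt5a*, *Mesp1*, *Lmo1*, *Fn1* and *Tbx6*, several of which are known for their expression in early mesoderm. *Hand1*, a mesoderm and trophoblast factor, had 1.27 FPKM in WT 1 and 11.3 FPKM in WT 2, against 0.792 FPKM for promoter KO 1 and 0.678 FPKM for promoter KO 2. *Kdr*, the VEGF receptor of mesodermal progenitors and endothelium, had 1.67, 11.3, 0.364 and 0.289 FPKM in the same order. *Fn1*, which encodes fibronectin, had 64.6, 221, 49.1 and 40.2 FPKM. Like *Fos*, *Hand1* and *Kdr* were high in WT 2 and close together in promoter KO. *Fn1* was also high in WT 2, but its promoter KO samples differed by more than in 78.7% of all tested genes. Among the genes just listed after *Egr1* this share ran from 1.42% for *Klhl6* to 99.8% for *Mesp1*. *Rps27*, a ribosomal protein gene, showed the same order of samples as *Fn1*, with 9.97, 44.1, 7.60 and 6.51 FPKM. Whether the genes of this group were raised in WT 2 for 1 reason was not tested.

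**Figure D4:**
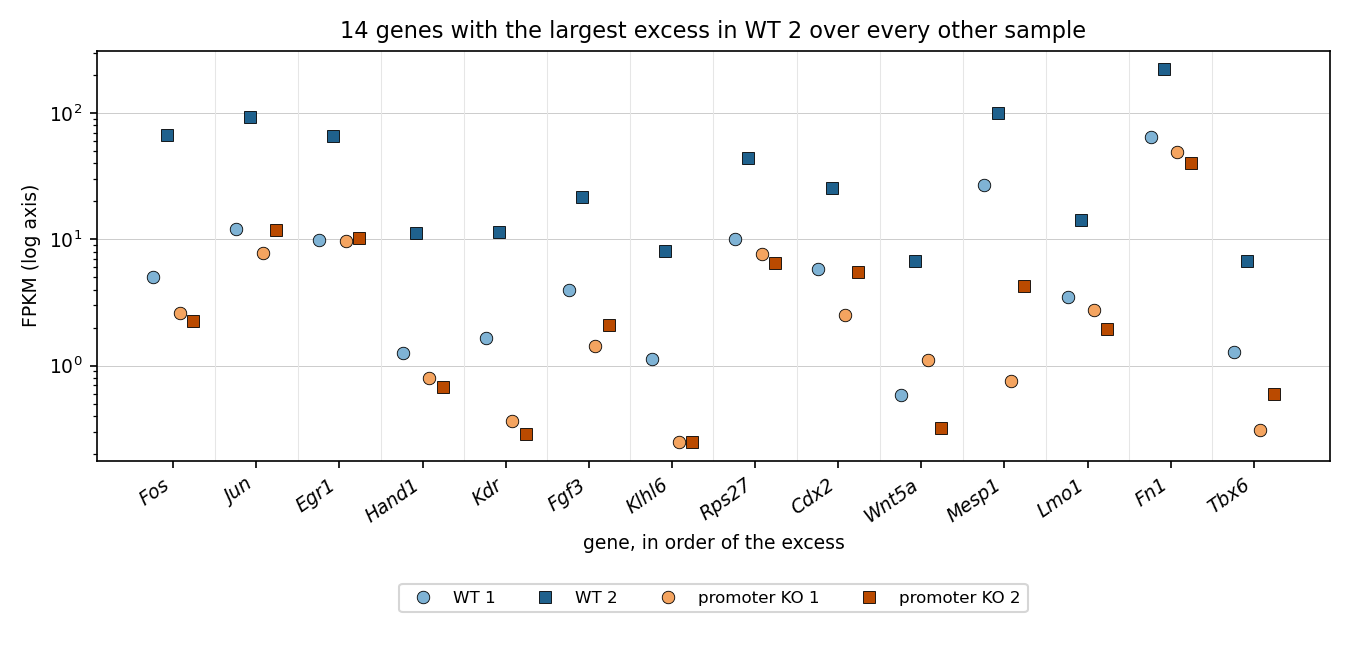
FPKM (log axis) in each sample of the 14 tested genes with the largest excess of WT 2 over every other sample, with WT in blue, promoter KO in orange, circles for replicate 1 and squares for replicate 2. *Fosb*, which was not tested, had a larger excess (3.99 on the log2 scale) and is not shown. *Fos*, *Jun* and *Egr1* come first, and *Mesp1* has the largest ratio of WT 1 to the promoter KO mean among the 14 (10.8), ahead of *Kdr* (5.11) and *Klhl6* (4.48).

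Cell type markers were set beside these values. The 7 mesendoderm and primitive streak markers, the labelled cell type, summed to 747 FPKM in WT 1 and 943 FPKM in WT 2, against 144 FPKM for promoter KO 1 and 304 FPKM for promoter KO 2, and all 7 were detected in every sample. *T*, the streak factor brachyury and the most abundant of them by the mean of all samples, had 306, 448, 50.5 and 127 FPKM in that order. In promoter KO 1 *Eomes* was above it, at 56.3 FPKM. *Mesp1*, a factor of early cardiac and cranial mesoderm, had 27.0, 101, 0.759 and 4.24 FPKM, so that it was both lower in promoter KO (limma adjusted p = 0.0467) and much higher in WT 2 than in WT 1. *Mixl1*, *Gsc* and *Lhx1* were also lower at an adjusted p under 0.05, with log2 fold changes of -2.74, -2.33 and -3.04. *Eomes* (-1.16, adjusted p = 0.0547), *T* (-2.19, adjusted p = 0.0509) and *Foxa2* (-0.98, adjusted p = 0.154) did not pass. The 4 lower of the 7 compare with 1.89% of all genes. In all 7 both promoter KO samples were below both WT samples, against 32.4% of all genes, although *Foxa2* in WT 2 (39.0 FPKM) was nearly level with promoter KO 2 (37.5 FPKM). Without WT 2, or without promoter KO 1, limma called 0 of all tested genes at an adjusted p under 0.05, these markers included. In bulk RNA, fewer cells of a type and less RNA per cell cannot be told apart. The part of differentiation state in the values of the immediate early genes was not tested.

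The summed markers of 3 other cell types were also highest in WT 2. The 5 trophoblast markers summed to 20.3 FPKM in WT 1 and 57.5 FPKM in WT 2, against 9.27 FPKM for promoter KO 1 and 12.3 FPKM for promoter KO 2. By the mean of all samples they were led by *Cdx2* (5.77, 25.4, 2.49 and 5.51 FPKM). *Tfap2c* (9.60, 16.2, 3.87 and 3.83 FPKM) was above *Cdx2* in WT 1 and promoter KO 1, while *Elf5* stayed under 1 FPKM in every sample. *Cdx2* and *Hand1*, both on this list, are also known from the streak and early mesoderm. The 7 blood and endothelium markers summed to 4.60, 16.1, 7.76 and 5.64 FPKM. That sum was highest in WT 2 through *Kdr*, without which it was 2.93, 4.74, 7.40 and 5.35 FPKM. *Pecam1* was the most abundant by the mean of all samples, with 1.83, 2.97, 5.95 and 3.78 FPKM, and *Tal1*, *Gata1*, *Cdh5*, *Hbb-bh1* and *Ptprc* were under 1 FPKM throughout. The 8 extraembryonic endoderm markers summed to 42.0, 68.9, 46.8 and 61.4 FPKM, with *Gata4* at 5.02, 19.4, 9.68 and 13.8 FPKM. The list was mixed, with 4 of its genes highest in WT 2 and 4 lowest there and higher in promoter KO, namely *Dab2* (4.97, 2.48, 13.0 and 18.4 FPKM), *Ttr* (2.18, 0.996, 8.14 and 6.32 FPKM), *Afp* (1.25, 0.0242, 2.18 and 3.97 FPKM) and *Sox7* (0.289, 0.221, 1.87 and 1.66 FPKM). At an adjusted p under 0.05 limma called *Gata6* (-1.65) and *Tfap2c* (-1.48) lower in promoter KO, against 1.89% of all genes. It called *Sox7* (1.14), *Dab2* (1.86) and *Ttr* (1.70) higher, against 1.68%. The part of these cell types in the result was not tested.

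The sums of the last 3 lists were not highest in WT 2. The 6 pluripotency markers summed to 2010 FPKM in WT 1 and 1733 FPKM in WT 2, against 2734 FPKM for promoter KO 1 and 2433 FPKM for promoter KO 2, led by *Pou5f1* (1499, 1188, 1522 and 1545 FPKM). *Pou5f1* was the only 1 of the 6 that was lowest in WT 2, while 4 were lowest in WT 1 (*Sox2*, *Zfp42*, *Esrrb* and *Utf1*) and *Nanog* in promoter KO 1. *Utf1*, with 262, 297, 828 and 617 FPKM, was higher in promoter KO (log2 fold change 1.35, limma adjusted p = 0.0275). The 5 neuroectoderm markers summed to 93.5, 86.7, 76.8 and 81.6 FPKM, most of it from *Otx2* (71.4, 61.9, 68.1 and 65.4 FPKM) and much of the rest from *Nes* (21.6, 24.5, 6.94 and 14.7 FPKM), with *Sox1*, *Pax6* and *Zic1* under 1 FPKM throughout. The 6 fibroblast markers summed to 12.8, 12.3, 17.3 and 10.9 FPKM, most of it from *Thy1* (11.3, 10.2, 16.1 and 9.82 FPKM), with *Lum* listed at 0 in all 4 samples.

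Related genes were read from the same fit. Each count from that fit stands beside 1.89% of all tested genes lower and 1.68% higher at an adjusted p under 0.05. At an unadjusted p under 0.05 the shares of all tested genes were 15.6% and 15%, or 8.17% and 7.53% without WT 2. As for the markers, each adjusted call below was lost without WT 2 and without promoter KO 1, where 0 of all tested genes passed, with 976 lower and 899 higher by the unadjusted p in the former case and 1043 and 966 in the latter. Some were also lost without WT 1, where 0.955% of all genes were called lower: of the lists below, 0 transcription factors, 0 ERK pathway inhibitors, 0 AP-1 partners, 1 effector gene and 1 ATF4 gene were then called lower, and 1 effector gene and 4 p53 targets higher. Without the intensity trend 0 genes of these lists were called lower, and 1 effector gene and 2 p53 targets higher. Over all tested genes that fit called 27 lower and 55 higher. With no filter 0 of all tested genes were called, these lists included. Over all tested genes a pseudocount of 0.1 called 174 lower and 174 higher, and a mean of at least 5 FPKM 108 and 95. Each of these 2 settings gave 1 lower transcription factor, 1 lower effector gene and 0 AP-1 partners. Other list counts were unchanged under both. Without promoter KO 2 several counts rose, while the lower call among ERK pathway inhibitors was lost. The replicate block, which called 667 of all tested genes lower and 535 higher, raised the list counts. They became 7 lower transcription factors, 6 lower and 4 higher effector genes and 3 lower AP-1 partners. There were 4 lower ATF4 genes, 6 higher heat shock genes and 8 higher p53 targets. The block also gave 1 higher gene each among ERK pathway inhibitors and ATF4 genes and 1 lower MAP kinase gene. Of 19 other immediate early transcription factors 13 were tested, and 2 were lower in promoter KO at an adjusted p under 0.05, with a median log2 fold change of -0.52. *Fosl2*, an AP-1 subunit, had 4.52 FPKM in WT 1 and 5.41 FPKM in WT 2, against 0.892 FPKM for promoter KO 1 and 1.88 FPKM for promoter KO 2 (log2 fold change -1.35, limma adjusted p = 0.0460). *Hes1*, a Notch target and repressor, had 48.7, 58.7, 22.8 and 28.8 FPKM (-1.03, adjusted p = 0.0377). In both genes the WT samples were above promoter KO and nearer to each other than to either promoter KO sample. Their difference was still larger than in 71.1% of all tested genes for *Fosl2* and 78.7% for *Hes1*. In 0 of the 13 did WT 2 exceed WT 1 by more than 1 on the log2 scale, against 0.938% of all genes. WT 2 was highest in 7 of the 13, against 31% of all genes. Without WT 2, 0 of the 13 had an adjusted p under 0.05 and 6 were lower at an unadjusted p under 0.05, with a median of -0.33.

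Of 30 other immediate early effectors and feedback genes 29 were tested, of which 2 passed an adjusted p of 0.05 as lower and 1 as higher, with a median of -0.20. *Gadd45b*, a stress sensor, had 11.9 FPKM in WT 1 and 15.0 FPKM in WT 2, against 4.02 FPKM for promoter KO 1 and 6.61 FPKM for promoter KO 2 (log2 fold change -1.22, limma adjusted p = 0.0493). *Dusp5*, a nuclear ERK phosphatase, had 14.4, 17.5, 7.68 and 8.24 FPKM (-0.91, adjusted p = 0.0389). *Plk2*, a polo-like kinase that p53 can induce, had 13.1, 11.4, 47.2 and 33.3 FPKM (1.62, adjusted p = 0.0275). The 2 lower genes and *Plk2* separated the genotypes, and their WT samples were nearer to each other than to either promoter KO sample. The WT difference was still larger than in 83.9% of all tested genes for *Gadd45b*, 79.2% for *Dusp5* and 64.2% for *Plk2*. WT 2 exceeded WT 1 by more than 1 in 1 gene of the 29, against 0.938% of all genes. That gene was *Rhob*, a small GTPase named after its values were seen, with 38.5, 108, 26.8 and 40.3 FPKM. WT 2 was the highest sample in 16 of the 29, against 31% of all genes. Without WT 2, 0 of the 29 had an adjusted p under 0.05, with 5 lower and 7 higher at an unadjusted p under 0.05 and a median of -0.05.

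Genes of the signalling route were read next. Of 10 ERK pathway feedback inhibitors only *Dusp5* passed, and the median was 0.09. Of 12 SRF, ternary complex and CREB factors 0 passed the adjusted test of limma and 0 had an unadjusted p under 0.05, with a median of 0.07. Their lowest log2 fold change was that of *Elk1* (-0.29), a ternary complex factor, with 11.9 FPKM in WT 1 and 10.8 FPKM in WT 2, against 8.64 FPKM for promoter KO 1 and 9.62 FPKM for promoter KO 2, and their highest that of *Fhl2* (0.32), with 1.59, 2.48, 2.43 and 3.10 FPKM. Of 15 MAP kinases and their kinases 0 passed the adjusted test, with 3 lower and 2 higher at an unadjusted p under 0.05 and a median of -0.02. *Map2k1* (MEK1) had the lowest value (-0.41; 90.9, 91.3, 63.4 and 73.8 FPKM) and *Map2k3* the highest (0.34; 16.5, 16.0, 23.0 and 18.9 FPKM). WT 2 exceeded WT 1 by more than 1 on the log2 scale in 0 genes of these 3 lists, against 0.938% of all genes. Without WT 2 their medians were -0.02, 0.05 and 0.05, and 2 MAP kinase genes were lower, 0 higher, by the unadjusted p.

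Of 12 further AP-1 dimer partners 9 were tested, and *Fosl2* alone passed, with a median of -0.26 (-0.20 without WT 2). Of 12 heat shock genes 0 passed the adjusted test of limma, with a median of 0.35. At an unadjusted p under 0.05 the count was 7 higher, 0 lower, against 15% and 15.6% of all genes, and without WT 2 it was 3 higher, 0 lower, with a median of 0.29. *Hspb1*, a small heat shock protein, was the highest of them (0.94), with 136 FPKM in WT 1 and 163 FPKM in WT 2, against 347 FPKM for promoter KO 1 and 237 FPKM for promoter KO 2, and the cochaperone gene *Dnajb1* the lowest (-0.08), with 36.3, 32.9, 31.6 and 33.8 FPKM. WT 2 was above WT 1 in 4 of the 12 heat shock genes, *Hspb1* among them, and was the highest sample in 0 (31% of all genes).

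Of 11 ATF4 and stress response genes 2 were lower and 0 higher at an adjusted p under 0.05, with a median of -0.33. *Ddit3* (CHOP) had 22.7 FPKM in WT 1 and 25.0 FPKM in WT 2, against 13.7 FPKM for promoter KO 1 and 13.6 FPKM for promoter KO 2 (log2 fold change -0.76, limma adjusted p = 0.0371). *Ddit4*, an inhibitor of mTORC1 signalling, had 489, 466, 139 and 232 FPKM (-1.41, adjusted p = 0.0422). In both genes the WT samples were close together, so neither followed the pattern of *Fos*. WT 2 was the highest sample in 8 of these 11 genes, against 31% of all tested genes. Without WT 2, 0 of the 11 had an adjusted p under 0.05, with 4 lower and 1 higher by the unadjusted p, and the median was -0.11. It was -0.57 without WT 1.

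Of 13 p53 target genes 0 were lower and 6 higher at an adjusted p under 0.05, against 1.89% and 1.68% of all genes, with a median of 0.70. The cell cycle inhibitor gene *Cdkn1a* (p21) had 43.8 FPKM in WT 1 and 49.5 FPKM in WT 2, against 82.5 FPKM for promoter KO 1 and 83.3 FPKM for promoter KO 2 (log2 fold change 0.82, limma adjusted p = 0.0280). *Mdm2*, the p53 ubiquitin ligase, had 24.9, 23.1, 50.9 and 43.0 FPKM (0.94, adjusted p = 0.0313). *Ccng1* had 51.1, 45.0, 116 and 96.8 FPKM (1.13, adjusted p = 0.0244). In each the WT samples were nearer to each other than to promoter KO, and both promoter KO samples were higher. *Trp53inp1* (0.95, adjusted p = 0.0281), *Phlda3* (0.96, adjusted p = 0.0217) and *Plk2* were the others that passed. *Btg2*, itself a p53 target, was 0.23 higher on the log2 scale and did not pass. Without WT 2, 0 of the 13 had an adjusted p under 0.05, the median was 0.67, and 9 were higher, 1 lower, by an unadjusted p under 0.05. *Btg2* was thus higher in promoter KO by less than the median of this list.

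Some values may include reads of neighbouring genes, because whether reads were counted by strand is not given in the sources used here. Overlaps were measured over whole gene spans, introns included, and how much of them lies in shared exons was not measured. In the GENCODE M21 annotation of GRCm38, *Jun* (chr4:95049034-95052222) overlaps its antisense gene *Junos* by 689 bases, and *Junb* (chr8:84974484-84978718) overlaps *Prdx2* on the opposite strand by 351 bases. *Prdx2*, a peroxiredoxin gene, had 480 FPKM in WT 1 and 520 FPKM in WT 2, against 336 FPKM for promoter KO 1 and 423 FPKM for promoter KO 2, so that it was far more abundant than *Junb* in every sample. *Dusp1* overlaps *Ergic1* by 640 bases, with *Ergic1* at 49.7, 54.4, 29.7 and 41.1 FPKM. It also overlaps the pseudogene *Gm8225* on the opposite strand by 956 bases. On its own strand it overlaps *AC122252.1* (1853 bases), which is annotated as sense intronic, and *AC122252.4* (227 bases). *Atf3* overlaps *Gm24748* by 108 bases. No values were found under these 4 names. Where exons are shared, reads from opposite strands cannot be told apart without strand, nor those on the same strand with it. *Prdx2* had the same order of the 4 samples as *Junb*, and *Ergic1*, like *Dusp1*, was highest in WT 2, though by less. The part of shared reads was not tested. Apart from *Junos*, no other annotated gene had a transcript that matched 1 of the 10 genes at 95% identity or more over at least 200 bases.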

How the data were processed

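RNA-seq expression values of 4 samples of day 3 EBs were used, 2 of each genotype, grouped by the sample labels. The values deposited by the authors are taken as FPKM, with library size and transcript length already normalized. Their headers name no unit, and the methods speak of RPKM. The methods name TopHat, Cufflinks and the GENCODE M4 annotation, whereas the submitters' processing notes name HISAT2 2.1.0, Cufflinks and Cuffnorm, with mm10. Reads were not used here.

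The 11941 genes that reached 1 FPKM in 2 or more samples were tested on log2(FPKM + 1), using R 4.3.3 and limma 3.58.1 with a variance trend over intensity, and p-values were adjusted over all of them by the Benjamini-Hochberg method. A pseudocount of 1 understates the fold change of genes with low values. The procedure was tested on simulated data. The members and lists were chosen with earlier results of these data known, so no p was adjusted over a list, and lists are described by counts and medians. Named genes include the 10 members, *Gm11549*, and list genes with an adjusted p under 0.05 or else the lowest and highest fold change of the list. Among markers they include the most abundant of each cell type by the mean of all samples, those that drive or run against the sum of their list, and all mesendoderm markers. Genes with a large excess in WT 2 and genes that overlap a member were also named, as were some markers for low values or their order of samples.

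The study describes the samples of a genotype as biologically independent, and the labels do not say whether they came from separate cultures. The p-values measure only the spread between these samples, part of which limma shares between genes. The alternatives were a replicate block, each sample left out, a pseudocount of 0.1, no filter, a mean of at least 5 FPKM, no trend, median centring, quantile normalization and, with no test, ratios of mean FPKM. Depth was estimated from FPKM steps, and a fragment length of 300 in place of 200 bases gave 21100000 to 26000000 fragments. Annotation, sequence motifs, BLAST 2.17.0 searches and figures were handled with Python 3.11.15, numpy 2.4.6, pandas 2.3.3 and matplotlib 3.10.9.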

Additional observations from a re-analysis of the deposited data

How the results depend on the processing

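Over the 9 tested genes and all alternatives, 88 log2 fold changes from limma kept their sign and their side of the threshold, 7 passed an adjusted p of 0.05 that they had missed, and 3 changed sign. These 3 were *Egr1* without WT 2 (0.00208) and *Atf3* without WT 1 (-0.35) and without promoter KO 2 (-0.14). Of the 9 ratios of mean FPKM, 8 kept the sign and 1, that of *Atf3* (-0.0134), did not. With 1 sample left out, *Egr1* ranged from -2.61 to 0.00208 and *Atf3* from -0.35 to 0.40. Because a sample left out leaves 1 sample in a genotype, that sample was assumed to vary like the other genotype. When 1 sample was left out, the immediate early genes lower at an adjusted p under 0.05 ranged from 0 to 5, those lower at the fold change threshold from 1 to 6, and their median log2 fold change from -1.46 to -0.18. Over all genes, adjusted calls ranged from 0 to 248 lower and from 0 to 238 higher, and fold change threshold calls from 132 to 324 lower and from 118 to 254 higher. The calls were 0 without WT 2, where 976 genes were lower and 899 higher at an unadjusted p under 0.05, and 0 without promoter KO 1, where 1043 were lower and 966 higher.

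With the replicate number as a block, 667 genes were lower and 535 higher by the adjusted p. These include 1 immediate early gene, *Junb* (adjusted p = 0.0100). The deviations of same-numbered samples correlated across genes at 0.0348, and the labels name no pairing. Whether same-numbered samples were handled together cannot be told from these data.

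A pseudocount of 0.1 gave 358 lower and 307 higher genes at the fold change thresholds. With no filter 0 genes were lower and 0 higher by limma's adjusted p (1982 and 2077 at an unadjusted p under 0.05), and 1 immediate early gene passed the fold change threshold. A filter at a mean of 5 FPKM gave 108 lower and 95 higher adjusted calls and 126 lower and 84 higher fold change calls. Without the intensity trend the adjusted calls were 27 lower and 55 higher, and with median centring 126 lower and 157 higher (1624 and 2042 at an unadjusted p under 0.05). Fewer or more genes tested changes the adjustment, and otherwise the cause was not tested.

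Each genotype has 2 samples, so the spread of a gene rests on 2 differences. The lowest value of a tested immediate early gene, *Fos* in promoter KO 2, stands for about 86.9 fragments at the estimated depth, whereas *Fosb* outside WT 2 and *Gm11549* rest on fewer.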
